A study of Mus musculus with 24 samples.

Results

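At day 7, 4 tumours of mice given T cells that had been transduced with IL-12 (IL-12TD) were set against 4 tumours of mice left without treatment, 8 of the 24 arrays of the series, taken by their titles. The tumours were subcutaneous growths of B16, an established mouse melanoma cell line, seeded with 500000 cells in mice 6 to 12 weeks old. In the IL-12TD arm, 10 to 14 days after that injection, 100000 pmel-1 CD8+ T cells carrying an IL-12 transgene were given together with total body irradiation at 5 Gy. The untreated mice are not said to have been irradiated or given cells, so the comparison measures irradiation, T cells and IL-12 together, and their separate parts cannot be told apart in it. Another arm, Mock, had the same irradiation and the same number of pmel-1 cells without the transgene, and its 4 day 7 arrays are given beside the others; 1 field of their labels names day 3, while all other fields name day 7. Day 7 is counted from treatment, and the age of the untreated tumours is not stated. Strain, sex and the number of tumours behind each array are not given either. P-values and standard errors rest on the spread inside all 6 groups of the series, day 3 and Mock included. That spread may be technical. The RNA came from whole single-cell suspensions of excised tumours, in which a larger number of cells of a type and more RNA per cell cannot be told apart.

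IL-12 is a heterodimeric cytokine that drives T and NK cells to secrete interferon gamma. Interferon gamma acts through the JAK kinases and switches on a broad programme in most cell types, including guanylate-binding proteins, immunity-related GTPases and the machinery of antigen presentation. Pmel-1 T cells carry a receptor for a peptide of the melanocyte protein Pmel (gp100), which B16 cells express, and irradiation before transfer depletes host lymphocytes.

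The stretch before the start of each gene was searched for the letters of 2 interferon-response motifs, and 5 windows are shown because their genes are interferon-inducible and rose here. Each window is the 250 bases before the start of the gene in RefSeq (GRCm38.p6), 5′ to 3′ on the strand of the gene, with the motifs found in capitals. The motifs searched on both strands were TTCNNNGAA, the core of the interferon gamma activated site (GAS), and GAAANNGAAA, the core of the interferon-stimulated response element (ISRE), shown as its reverse complement where it lies on the other strand. Gbp5, a guanylate-binding protein (chr3:142496684-142496933, + strand), has 2 GAS matches and 1 ISRE match. Gm12250, an immunity-related GTPase gene (chr11:58183593-58183842, + strand), has 1 GAS match and 2 ISRE matches. Irf1, a transcription factor early in the interferon gamma response (chr11:53769764-53770013, + strand), has 1 GAS match. Irf1 has 2 windows, and windows with a match were put first in choosing the one shown. Each of the other genes shown has 1 window. Cxcl10, a chemokine for activated T cells (chr5:92348890-92349139, - strand), has 1 ISRE match. Casp12, an inflammatory caspase (chr9:5345226-5345475, + strand), has 2 GAS matches.
Gbp5: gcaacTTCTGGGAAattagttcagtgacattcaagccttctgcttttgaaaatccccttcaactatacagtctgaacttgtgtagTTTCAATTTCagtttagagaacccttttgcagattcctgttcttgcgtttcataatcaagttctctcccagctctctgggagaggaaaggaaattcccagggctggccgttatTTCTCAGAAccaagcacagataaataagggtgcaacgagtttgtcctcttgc
Gm12250: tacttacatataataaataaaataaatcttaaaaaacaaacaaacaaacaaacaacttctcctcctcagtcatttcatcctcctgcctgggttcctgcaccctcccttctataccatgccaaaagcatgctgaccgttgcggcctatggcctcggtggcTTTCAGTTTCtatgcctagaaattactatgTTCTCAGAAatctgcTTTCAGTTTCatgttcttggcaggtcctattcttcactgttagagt
Irf1: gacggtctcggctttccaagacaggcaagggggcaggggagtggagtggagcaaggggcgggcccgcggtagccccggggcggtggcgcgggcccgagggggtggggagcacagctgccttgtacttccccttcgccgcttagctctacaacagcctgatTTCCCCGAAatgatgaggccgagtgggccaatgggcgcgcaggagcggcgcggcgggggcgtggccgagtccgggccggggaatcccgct
Cxcl10: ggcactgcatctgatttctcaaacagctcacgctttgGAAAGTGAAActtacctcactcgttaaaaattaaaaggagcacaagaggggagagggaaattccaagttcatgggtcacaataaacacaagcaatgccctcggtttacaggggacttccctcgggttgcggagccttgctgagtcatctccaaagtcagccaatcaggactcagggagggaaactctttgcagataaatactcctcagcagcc
Casp12: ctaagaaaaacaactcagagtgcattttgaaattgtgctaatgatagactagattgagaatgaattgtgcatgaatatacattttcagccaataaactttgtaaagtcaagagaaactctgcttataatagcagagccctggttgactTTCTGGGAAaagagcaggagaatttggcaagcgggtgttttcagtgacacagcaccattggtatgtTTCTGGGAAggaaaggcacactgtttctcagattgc

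Of 15614 tested genes with such a window, 7.71% held a GAS match and 3.4% an ISRE match. Of the 537 genes with a window that were at least 2-fold higher in the IL-12TD tumours, 58 (10.8%) held a GAS match and 65 (12.1%) an ISRE match. Of the 94 that were at least 2-fold lower, 8.51% held a GAS match and 2.13% an ISRE match. Windows were found for 6 of the 11 measured guanylate-binding protein and immunity-related GTPase genes, and all 6 held an ISRE match and 3 a GAS match. Of the 14 genes with a window on the type I interferon response list, 6 held an ISRE match and 5 a GAS match. A match is a run of letters and was not tested as a binding site.

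The day 7 arrays had mean medians of 5.51 (IL-12TD) and 5.42 (untreated) and mean interquartile ranges of 2.45 and 2.40 on the log2 scale. The medians did not overlap, with 5.50 to 5.53 in the IL-12TD and 5.38 to 5.46 in the untreated arrays. Untreated replicate 3 stood apart: its mean correlation with the other untreated day 7 arrays was 0.967, against 0.977 to 0.981 for the other 3. On the first principal component of all 24 arrays it lay at -1.75, while the other 3 lay at 21.8 to 27.4. The tumours carried the melanocyte genes their label implies: Pmel had levels of 11.45 to 11.94 in the untreated tumours, near the top of the scale of 1.009 to 14.367, and Tyr 8.74 to 9.79.

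Of 19938 genes tested with limma (moderated test, Benjamini-Hochberg adjustment), 4062 (20.4%) differed between the IL-12TD and untreated tumours at an adjusted p under 0.05. Of these, 2346 (11.8% of all genes) were higher in the IL-12TD tumours and 1716 (8.61%) lower. Counts of list members below are to be read beside these shares. The large differences went mostly one way: 735 genes (3.69%) were at least 2-fold higher and 133 (0.667%) at least 2-fold lower. In 4262 genes (21.4%) the 4 and 4 values did not overlap at all. Higher genes made up 57.8% of the calls on the deposited scale, 45.4% after quantile normalization and 39.3% after each array was centred on its median, so the split of small differences depends on the scaling. The median difference over all genes was -0.02 (log2).

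**Figure D1:**
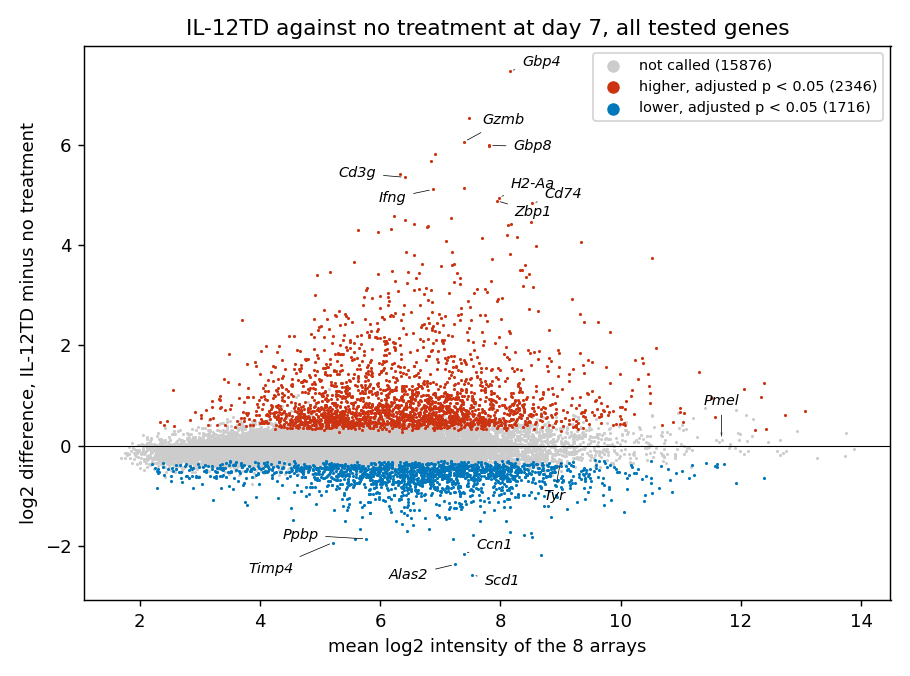
Log2 difference between the IL-12TD and untreated tumours at day 7 (vertical axis, log2) against the mean log2 intensity of the 8 arrays (horizontal axis), 1 point per gene, 19938 genes. Red points are the 2346 genes called higher, blue points the 1716 called lower and grey points the genes not called; the rises reach 7.48 (Gbp4) and the falls -2.59 (Scd1), while Pmel and Tyr lie near 0.

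With model and clone names left out, the 10 largest rises were interferon-inducible, T cell or antigen presentation genes. Gm12250, left out by its name, rose by 5.15 and is given below. Gbp4, a guanylate-binding protein, had levels of 3.69, 4.28, 5.41 and 4.29 in the untreated tumours and 11.93, 11.53, 12.08 and 12.04 in the IL-12TD tumours, a log2 difference of 7.48 ± 0.53 (SE, n = 4 and 4; adjusted p = 1.72e-11, limma). Gzmb, the cytotoxic protease granzyme B, rose by 6.07 ± 0.51, from 3.99, 4.04, 5.11 and 4.32 to 10.24, 10.19, 10.38 and 10.91. Gbp8 rose by 5.996 ± 0.27, Gbp11 by 5.98 ± 0.29 and the GTPase Iigp1 by 5.68 ± 0.40. The other five were Cd3g (part of the CD3 signalling complex of T cells, 5.36 ± 0.36), Ifng (5.12 ± 0.28), H2-Aa (an MHC class II chain, 4.95 ± 0.32), Zbp1 (a sensor of nucleic acid in Z form, 4.89 ± 0.32) and Cd74 (the class II invariant chain, 4.84 ± 0.35). In each of the 10 genes every IL-12TD array was above every untreated array, which the rule that picked them required. Untreated replicate 3 was the highest of the untreated arrays for 9 of the 10 genes, Ifng being the exception. In 7 of the 10 (all but H2-Aa, Zbp1 and Cd74) the untreated mean lay below 5.42, the mean of the untreated arrays' medians; no background level was used here, so differences from such low levels may be too small, and the order of the 10 was not tested.

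**Figure D2:**
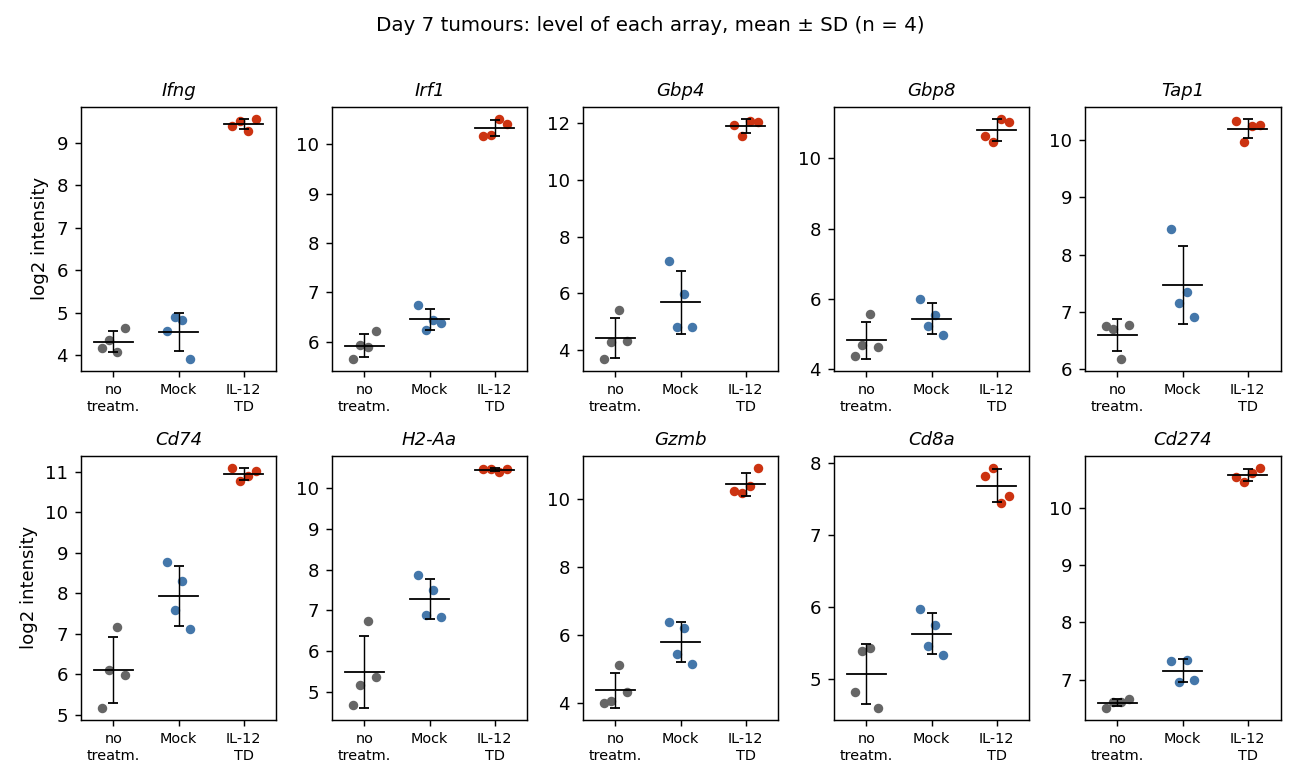
Log2 intensity of 10 genes that rose (vertical axes) in each day 7 array of the no treatment, Mock and IL-12TD groups; points are arrays, bars the mean and SD of 4. All 4 IL-12TD points lie above all untreated and all Mock points in each of the 10 panels. For Ifng, Gbp4, Gbp8, Cd74, H2-Aa and Gzmb, the lack of overlap with the untreated points was part of the rule that picked them.

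Interferon gamma itself was among the largest rises and its signalling genes rose with it. Ifng had levels of 4.18, 4.36, 4.08 and 4.65 in the untreated tumours and 9.40, 9.51, 9.28 and 9.55 in the IL-12TD tumours (adjusted p = 2.14e-13). The groups lay far apart, with little spread inside either. Of 11 measured genes of interferon gamma signalling, 9 rose and 1 fell, with a median difference of 1.23 beside -0.02 over all genes. Irf1 rose by 4.40 ± 0.26, from 5.66, 5.94, 5.89 and 6.21 to 10.18, 10.20, 10.51 and 10.41. Its size depended on the processing, with 2.84 to 4.50 over the alternatives run, and its call was kept in all. Stat2, a transducer of interferon signals, rose by 3.17 ± 0.21. Of the kinases and the receptor, Jak2 rose by 1.71, Jak1 by 1.23 and the ligand-binding chain Ifngr1 by 1.58. The feedback inhibitors Socs1 and Socs3 rose by 1.00 and 0.76. The second receptor chain Ifngr2 was the one that fell, by 0.42 (adjusted p = 0.0209), and its call was lost without untreated replicate 3, its highest array at 9.09 where the others had 8.51 to 8.71, and without IL-12TD replicate 1 (adjusted p up to 0.104).

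All 8 measured guanylate-binding proteins, GTPases that act on membranes of intracellular pathogens, rose, by 2.17 (Gbp2b) to 7.48 (Gbp4), with a median of 4.39. The 3 measured immunity-related GTPases rose too: Iigp1 by 5.68, Gm12250 by 5.15 and Irgm1 by 4.06. Gbp5, whose promoter window is shown above, rose from 3.60, 3.72, 4.21 and 3.80 to 8.13, 7.89, 8.25 and 8.11 (4.26 ± 0.24), and Gm12250 from 4.33, 4.80, 5.33 and 4.81 to 10.30, 9.65, 10.03 and 9.90. Members of these families are similar in sequence, and a probeset may read more than 1 of them. All 21 measured genes of the type I interferon response list, many of which interferon gamma also induces, rose, with a median of 2.07; Ifit3 rose by 4.16 ± 0.26, Ifit2 by 2.88 ± 0.16 and the RNA sensor regulator Dhx58 by 2.76 ± 0.17. In the Schlafen family, regulators of lymphocyte quiescence and of RNA, 7 of 8 rose and Slfn3 did not pass (-0.02), with Slfn8 (2.44 ± 0.22) above the pseudogene Slfn10-ps (1.19) and Slfn9 (1.03).

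Genes of both antigen presentation pathways rose. Of 16 measured genes of MHC class I presentation, 13 rose, with a median of 2.24 over the list. Tap1, a subunit of the transporter that loads peptides, had levels of 6.74, 6.71, 6.18 and 6.76 in the untreated and 10.33, 9.96, 10.26 and 10.27 in the IL-12TD tumours (3.61 ± 0.26). The peptide-loading factor Tapbp rose by 2.69 ± 0.19 and Nlrc5, the transactivator of class I genes, by 2.47 ± 0.16. The Nlrc5 rise was 2.30 to 3.57 over the alternatives run. The 3 that did not rise were general chaperones of the endoplasmic reticulum: Canx fell by 0.40 (adjusted p = 0.0453), a call lost under 7 of 16 alternatives: with array weights, in a fit on the compared groups only, and without untreated replicate 1 or 3 or IL-12TD replicate 1, 2 or 4 (adjusted p up to 0.188), and Calr (-0.14) and Pdia3 (-0.30) did not pass. The 3 subunits that replace others in the immunoproteasome rose by 2.93 (Psmb9), 2.54 (Psmb8) and 2.10 (Psmb10), whereas of 14 constitutive proteasome subunits 5 rose (Psma5, Psma4, Psma1, Psmb2 and Psma3, by 0.38 to 1.28), with a median of 0.25. That count was 3 without untreated replicate 1 or 4, and 7 without untreated replicate 3.

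Of 12 measured MHC class II genes, 9 rose and 1 fell, with a median of 2.29. H2-Aa had levels of 4.70, 5.18, 6.73 and 5.36 in the untreated tumours and 10.46, 10.46, 10.39 and 10.46 in the IL-12TD tumours. The untreated arrays were widely spread, with replicate 3 the highest, and the IL-12TD arrays lay close together. Cd74 rose from 5.18, 6.10, 7.17 and 5.99 to 11.09, 10.77, 10.90 and 11.03, and Ciita, the transactivator of class II genes, by 2.15 ± 0.12. H2-Eb1 rose by 3.05 ± 0.22. Ifi30, the thiol reductase of the same pathway, fell by 0.82 ± 0.21 with overlapping values, and H2-Oa (-0.25) and H2-Ob (0.23), the chains of an inhibitor of class II loading, did not pass.

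T cell genes rose, with a larger difference for the CD8 genes than for Cd4. Of 16 measured T cell markers 15 rose, with a median of 1.44. Cd8a had levels of 4.83, 5.40, 5.44 and 4.61 in the untreated and 7.83, 7.93, 7.45 and 7.54 in the IL-12TD tumours (2.62 ± 0.17). Cd3g rose from 3.72, 3.86, 3.88 and 3.46 to 9.20, 9.39, 8.64 and 9.13, and Cd3e by 2.90 ± 0.21. Cd4, the coreceptor of helper and regulatory T cells, rose by 0.59 ± 0.17 (adjusted p = 0.0148), from 4.66, 4.97, 5.12 and 4.47 to 5.37, 5.45, 5.41 and 5.33. Without untreated replicate 4 the Cd4 difference was 0.47 and did not pass (adjusted p = 0.0714). Foxp3, which defines regulatory T cells, did not pass (0.13 ± 0.13), with levels of 4.89 to 5.22 in the untreated and 4.88 to 5.35 in the IL-12TD tumours. Of 12 genes of naive, memory and regulatory T cells, 6 rose, among them Il7r, the IL-7 receptor (2.27 ± 0.31), Id2 (1.83 ± 0.22) and Prdm1 (1.55 ± 0.16), both transcription factors of effector cells.

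Cytotoxic effector genes had a median of 3.63, below only the 2 GTPase families among the 44 lists, with 13 of 14 members higher. Prf1, the pore-forming protein perforin, rose from 5.38, 5.30, 5.28 and 5.59 to 8.77, 9.001, 9.15 and 9.09 (3.62 ± 0.28), and the cathepsin Ctsw by 2.52 ± 0.18. Gzmd and Gzmg, 2 granzymes of a mouse gene cluster, rose by 4.58 ± 0.58 and 4.43 ± 0.52. Gzmm was the member that did not pass (-0.14). Granzymes of that cluster are close copies, so their probesets may share signal. Of 10 measured NK cell markers, 7 rose, with Klrc1 (3.40 ± 0.22), Klrd1 (2.39 ± 0.21) and Klrk1 (1.57 ± 0.16) first by adjusted p, receptors that activated CD8+ T cells carry too. The NK gene Ncr1 rose by 1.05, and Klrb1c (0.47), Klri2 (0.51) and Klre1 (0.16) did not pass.

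All 15 measured genes of the IL-12, IL-18 and IL-2 pathways rose, with a median of 1.45, and the receptors had larger differences than the IL-12 cytokine genes. Il2ra, the chain that gives the IL-2 receptor its high affinity, had levels of 3.58, 3.94, 4.49 and 4.05 in the untreated and 8.28, 8.39, 7.93 and 8.73 in the IL-12TD tumours (4.32 ± 0.22). The IL-12 receptor chains Il12rb1 and Il12rb2 rose by 3.73 ± 0.24 and 2.59 ± 0.18, and the IL-18 receptor Il18r1 by 2.17 ± 0.13. The IL-12 genes themselves rose least of the 15: Il12b by 0.57 ± 0.14 and Il12a by 0.39 ± 0.13. Il12a values overlapped (4.75 to 5.29 in the untreated, 5.18 to 5.50 in the IL-12TD tumours), and its call was lost without untreated replicate 1, 3 or 4 or IL-12TD replicate 1 or 3, and with 3 other settings (adjusted p up to 0.114). Detection of the transgene by these probesets was not tested.

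Checkpoint genes rose with the T cell genes. Of 14 measured immune checkpoint genes 10 rose, with a median of 1.11. Cd274, the ligand PD-L1, had levels of 6.50, 6.60, 6.61 and 6.65 in the untreated and 10.54, 10.45, 10.62 and 10.70 in the IL-12TD tumours (3.99 ± 0.23), groups that lay far apart. Its receptor Pdcd1 (PD-1) rose by 1.89 ± 0.15, and Ido1, the enzyme that breaks down tryptophan, by 2.20 ± 0.22. Cd200r1, Cd160, Btla and Cd200 did not pass (0.14 to 0.36). Of 14 costimulation genes 8 rose, with a median of 0.55: Tnfrsf9 (4-1BB) by 2.01 ± 0.19, Icos by 1.97 ± 0.15 and Tnfrsf18 (GITR) by 1.39 ± 0.15.

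Genes that leukocytes of many types share rose. All 17 measured pan-leukocyte genes rose, by 0.86 to 3.44, with a median of 2.01. Ptprc (CD45) rose from 4.61, 5.05, 5.46 and 4.54 to 7.92, 8.51, 8.30 and 8.71 (3.44 ± 0.28). Arhgdib rose by 2.31 ± 0.21 and the phosphatase Ptpn6 by 1.52 ± 0.11. The mean level of the list ranged from 7.44 to 7.96 over the IL-12TD arrays and from 5.42 to 6.01 over the untreated arrays. The part of this rise in leukocyte RNA in the changes of other gene groups was not tested.

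Most macrophage markers rose, while 1 neutrophil marker did. Of 21 macrophage and monocyte markers 16 rose, with a median of 1.31. Fcgr4, an activating Fc receptor, rose by 3.15 ± 0.28, the complement chains C1qb and C1qc by 2.05 ± 0.27 and 2.17 ± 0.30. Adgre1, the adhesion receptor used to mark mature macrophages, rose from 4.20, 4.08, 5.21 and 4.50 to 6.57, 6.47, 5.65 and 6.94 (1.91 ± 0.37), with the lowest IL-12TD array above the highest untreated array. Cd14, Mrc1, Cd163, Marco and Vsig4 did not pass (-0.23 to 0.26). Of 14 polarization genes 6 rose: Nos2, the inducible nitric oxide synthase, by 2.81 ± 0.27, Tnf by 1.20 ± 0.21 and Tgfb1 by 1.07 ± 0.16, with Ptgs2, Slc7a2 and Arg1 as the others. Arg1 values were 5.62, 5.61, 6.03 and 5.01 in the untreated, 6.35, 7.33, 6.34 and 6.86 in the IL-12TD and 6.35, 6.51, 7.14 and 6.57 in the Mock tumours, so that the IL-12TD and Mock arrays overlapped for this gene.

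Of 15 neutrophil markers 1 rose, the growth factor receptor Csf3r (0.75 ± 0.16), and the median was 0.09. For this list and those that follow here, the shares of all genes were 11.8% higher and 8.61% lower. S100a8 levels were 3.47 to 4.26 in the untreated and 3.70 to 4.34 in the IL-12TD tumours. Of 17 dendritic cell markers 4 rose (Irf8, Tlr3, Itgax and Wdfy4) and Fscn1 fell by 0.97, with a median of 0.08. Irf8, which interferon gamma also induces, rose by 4.42 ± 0.23 and Tlr3 by 0.87 ± 0.21. Batf3, Clec9a and Xcr1, markers of cross-presenting dendritic cells, did not pass (0.17 to 0.46), which does not show them to be unchanged. For Batf3, IL-12TD replicate 1 was low, at 4.91 against a mean of 5.56 in the others of its group. Of 11 B cell markers only Cd72 rose (0.70 ± 0.14), and Ms4a1 (CD20) stayed at 0.11 ± 0.13. Of 10 mast cell, basophil and eosinophil markers only Kit rose (0.59, adjusted p = 0.0427), a receptor that melanocytes carry too, and its call was lost after either rescaling and without untreated replicate 2, 3 or 4 or IL-12TD replicate 1, 2 or 3 (adjusted p up to 0.173).

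Of 27 chemokines 10 rose and 2 fell, with a median of 0.24. The 3 ligands of Cxcr3 rose: Cxcl9 by 3.87 ± 0.50, Cxcl10 by 3.52 ± 0.28 and Cxcl11 by 2.05 ± 0.22. Cxcl10 went from 6.65, 6.56, 6.44 and 6.76 to 10.78, 9.45, 10.15 and 10.10. Ccl5, a chemokine that T cells make, rose by 1.75 ± 0.15. The neutrophil chemokines Cxcl1, Cxcl2, Cxcl3 and Cxcl5 did not pass (-0.26 to 0.24). Ppbp, a chemokine of platelets, fell by 1.87 ± 0.36, from 5.79, 7.46, 7.16 and 6.40 to 4.67, 4.92, 4.66 and 5.10, and Cxcl13, a B cell attractant, by 0.50 (adjusted p = 0.0255), a call lost without untreated replicate 2 or 4 or IL-12TD replicate 3 or 4 (adjusted p up to 0.093). Of 13 chemokine receptors 3 rose: Cxcr6 by 3.02 ± 0.21, Ccr2 by 1.83 ± 0.32 and Cxcr4 by 0.54 ± 0.17; the receptor Cxcr3 itself did not pass (0.15). The Cxcr4 call was lost after either rescaling and without untreated replicate 3 or 4 or IL-12TD replicate 2 (adjusted p up to 0.122). Of 13 Toll-like receptor genes 8 rose (median 0.69), with Tlr13 at 1.73 ± 0.32 and the adaptor Myd88 at 1.55 ± 0.16. Of 14 complement genes 12 rose (median 1.63), among them the C1 inhibitor Serping1 (3.24 ± 0.20), C4b (2.28 ± 0.20) and the protease C1ra (2.09 ± 0.17).

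Genes of inflammatory cell death and of death receptors rose. Of 14 inflammatory caspase and inflammasome genes 10 rose, with a median of 1.02. Casp12 rose by 4.32 ± 0.31, from 3.25, 3.32, 3.68 and 3.64 to 8.08, 6.79, 8.06 and 8.22, with IL-12TD replicate 2 below the other 3. Casp4, the sensor of intracellular lipopolysaccharide, rose by 3.10 ± 0.20 and Gsdmd, which forms the pores of pyroptosis, by 2.55 ± 0.13. Of 14 death receptor and necroptosis genes 11 rose (median 0.79), including Tnfsf10 (TRAIL, 2.55 ± 0.21), the necroptosis effector Mlkl (2.25 ± 0.18), Fasl (1.09 ± 0.14) and Fas (0.61 ± 0.12). Tnfrsf10b, the mouse receptor for TRAIL, fell by 0.77 ± 0.17. Of 14 p53 target genes, the read-out of damage by radiation among other things, Btg2 (0.66) and Trp53inp1 (0.45) rose and Gtse1 fell by 0.89, with a median of -0.01 that was 0.08 without untreated replicate 3. Over all genes the shares were 11.8% higher and 8.61% lower. The Trp53inp1 call was lost after median centring and without untreated replicate 2, 3 or 4 or IL-12TD replicate 1, 3 or 4 (adjusted p up to 0.122). Cdkn1a was not analysed here.

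**Figure D3:**
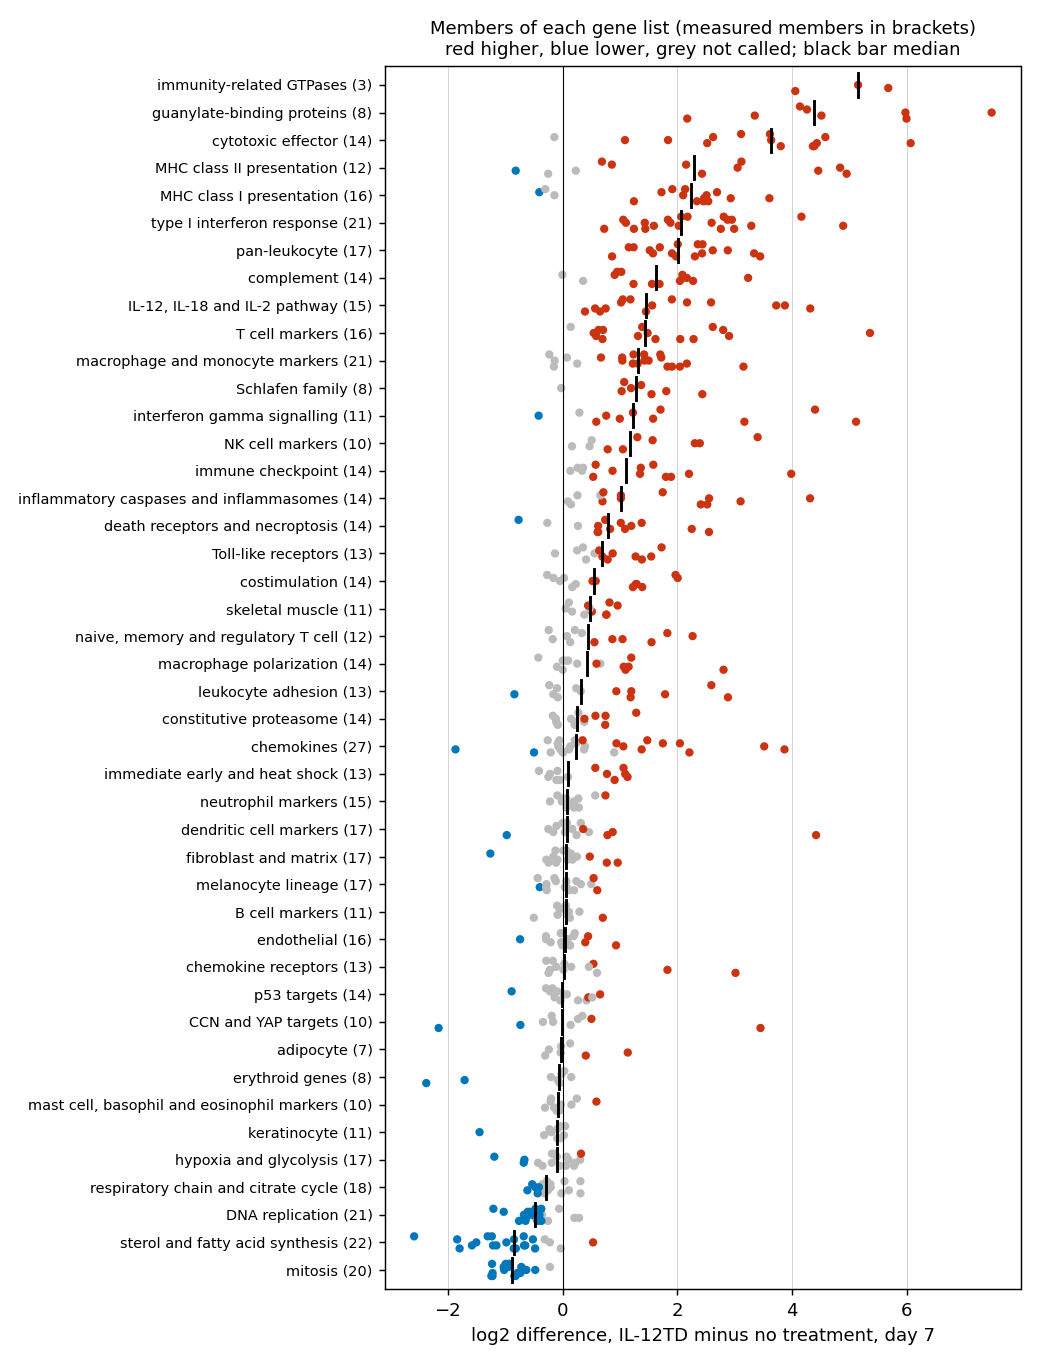
Log2 difference between the IL-12TD and untreated tumours at day 7 (horizontal axis) for every measured member of the 44 gene lists, ordered by median (black bars). Red points rose, blue points fell and grey points did not pass; the medians run from 5.15 for the immunity-related GTPases to -0.88 for mitosis.

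Most melanocyte genes did not pass in either direction. Of 17 melanocyte lineage genes 2 rose and 1 fell, beside 11.8% and 8.61% of all genes. Their median was 0.07, and -0.015 without untreated replicate 3. Pmel, the target of the transferred T cells, had levels of 11.94, 11.46, 11.45 and 11.63 in the untreated and 11.89, 11.45, 12.05 and 11.55 in the IL-12TD tumours (0.11 ± 0.16, adjusted p = 0.688). The values of the groups overlapped. Tyr (-0.28 ± 0.20) and Mitf (0.20 ± 0.19), the pigment enzyme and the lineage's transcription factor, did not pass either. Trpm1 rose by 0.61 ± 0.16 and Rab38 by 0.54 ± 0.15, the latter lost without IL-12TD replicate 1 (adjusted p = 0.0526), and Sox10 fell by 0.40 ± 0.11.

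The 10 largest falls, with model and clone names again left out, included genes of fat metabolism. They were Scd1 (-2.59 ± 0.22), Alas2 (-2.38 ± 0.29), Cntfr (a cytokine receptor chain, -2.18 ± 0.16), Ccn1 (-2.16 ± 0.22), the protease inhibitor Timp4 (-1.94 ± 0.21), Ppbp, the lipid transporter Abca12 (-1.86 ± 0.14), the dehydrogenase Gpd1 (-1.86 ± 0.20), Insig1 (-1.84 ± 0.16) and Ndrg2 (-1.79 ± 0.18). Scd1, the desaturase that makes oleic acid, had levels of 8.84, 8.55, 9.36 and 8.56 in the untreated and 6.62, 5.82, 6.12 and 6.39 in the IL-12TD tumours (adjusted p = 5.87e-10). Insig1, which holds the regulator of sterol synthesis in the endoplasmic reticulum, went from 9.82, 9.29, 9.17 and 9.46 to 7.72, 7.67, 7.51 and 7.50. In both genes the groups did not overlap, as the rule that picked them required. Of 22 measured genes of sterol and fatty acid synthesis 18 fell and 1 rose, with a median of -0.85; Msmo1, a demethylase of the cholesterol pathway, fell by 1.79 ± 0.21. The one that rose was Acaca (0.53, adjusted p = 0.028), whose call was lost after median centring and without untreated replicate 2, 3 or 4 or IL-12TD replicate 1 or 3 (adjusted p up to 0.114).

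Genes of cell division fell. Of 20 measured mitosis genes 19 fell, by 0.48 to 1.24, with a median of -0.88, and the exception was Top2a (-0.22). Mki67, the proliferation antigen Ki-67, had levels of 9.02, 8.58, 8.54 and 8.91 in the untreated and 7.42, 7.39, 7.70 and 7.63 in the IL-12TD tumours (-1.23 ± 0.15). Tpx2, a spindle factor, fell by 1.22 ± 0.13, Anln, of the contractile ring, by 1.22 ± 0.15 and the kinase Aurkb by 0.94 ± 0.11. Of 21 DNA replication genes 15 fell, with a median of -0.47, among them Tyms (-1.21 ± 0.15), Rrm2 (-1.02 ± 0.16) and Mcm2 (-0.76 ± 0.16). The replication count depended on single arrays: it was 8 without untreated replicate 1 or IL-12TD replicate 4, and 9 without IL-12TD replicate 2 or 3. Of 18 respiratory chain and citrate cycle genes 5 fell (Idh3a, Ndufb5, Atp5a1, Cs and Ogdh, by 0.41 to 0.61). That count was 1 without untreated replicate 3, 3 without untreated replicate 2 or IL-12TD replicate 2 or 3, and 9 after quantile normalization or median centring. Of 17 hypoxia and glycolysis genes Car9, the carbonic anhydrase of hypoxic cells (-1.19 ± 0.14), Pdk1 (-0.66 ± 0.11) and Adm (-0.68 ± 0.14) fell and P4ha1 rose by 0.32, a call lost under 8 of 16 alternatives, both rescalings and untreated replicate 2 or 4 or IL-12TD replicate 1, 3 or 4 left out among them (adjusted p up to 0.153). The lower count was 5 without untreated replicate 3. In the main fit 8.61% of all genes fell.

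**Figure D4:**
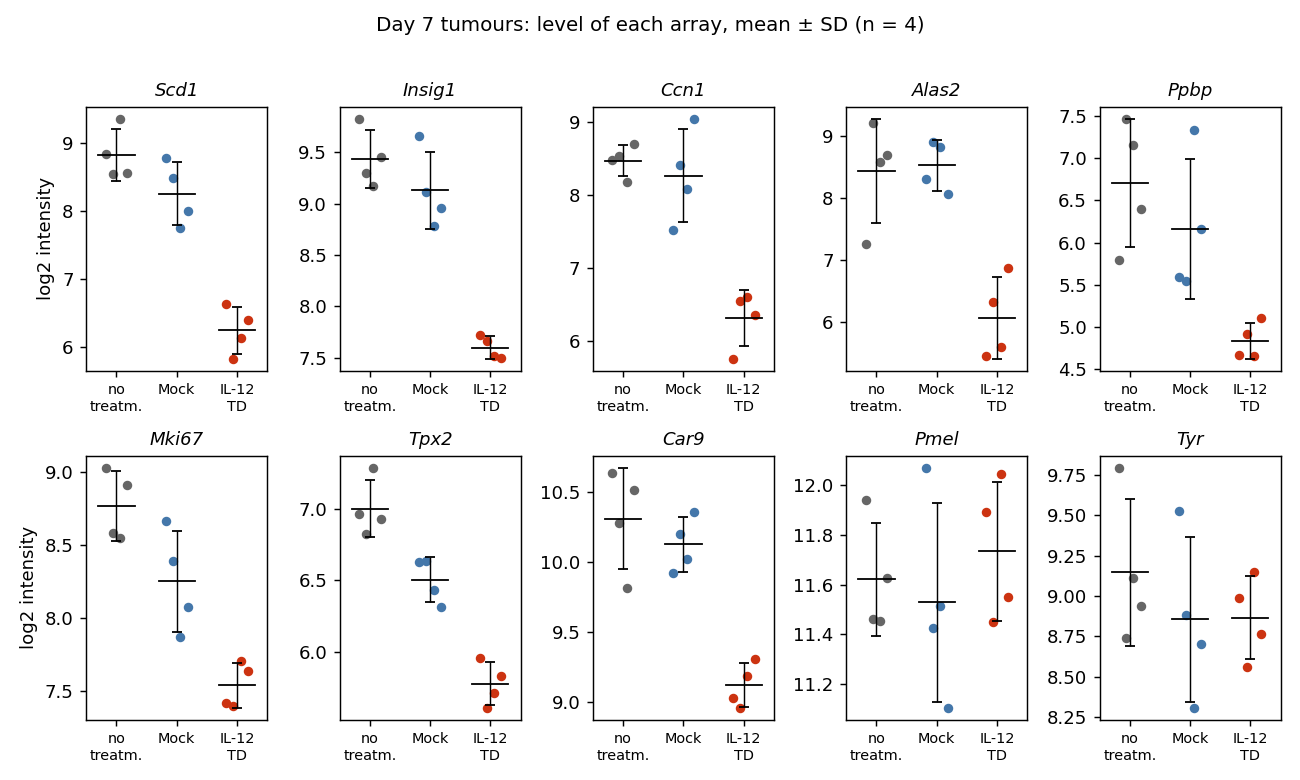
Log2 intensity of 10 genes (vertical axes) in each day 7 array of the no treatment, Mock and IL-12TD groups; points are arrays, bars the mean and SD of 4. All 4 IL-12TD points lie below all untreated points for Scd1, Insig1, Ccn1, Alas2, Ppbp, Mki67, Tpx2 and Car9, and overlap with them for Pmel and Tyr. For Scd1, Insig1, Ccn1, Alas2 and Ppbp, the lack of overlap was part of the rule that picked them.

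The red cell genes Alas2 and Slc4a1 fell. Alas2, the first enzyme of haem synthesis in red cells, had levels of 7.25, 9.21, 8.58 and 8.69 in the untreated and 5.45, 6.32, 5.59 and 6.86 in the IL-12TD tumours, and 8.30, 8.90, 8.81 and 8.05 in the Mock tumours. Slc4a1, the anion exchanger of the red cell membrane, fell by 1.71 ± 0.24. The other 6 of 8 erythroid genes, including the regulators Gata1 and Klf1, did not pass (-0.20 to 0.15).

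Most stromal lists had medians near 0. Low counts on them are to be read beside the 11.8% of all genes that rose and the 8.61% that fell. Of 16 endothelial genes Pecam1 (0.93 ± 0.13), Flt1 (0.45) and Vwf (0.40) rose and Emcn fell by 0.74 ± 0.17, with a median of 0.04; the VEGF receptor Kdr did not pass (0.09). The higher count was 1 without untreated replicate 3 or IL-12TD replicate 1 and after either rescaling, and the lower count 2 after quantile normalization and 3 after centring. Of 13 leukocyte adhesion genes 6 rose, such as Itgal (2.88 ± 0.21), Selplg (2.59 ± 0.20), Icam1 (1.79 ± 0.18) and Vcam1 (1.19 ± 0.17), and Itga4 fell by 0.84. Of 17 fibroblast and matrix genes Dcn (0.96), Fap (0.77) and Pdgfra (0.48) rose and the protease Mmp2 fell by 1.26 ± 0.17; collagen Col1a1 did not pass (-0.11). Ccn1, a matrix protein gene that YAP induces, fell from 8.48, 8.53, 8.18 and 8.70 to 5.75, 6.55, 6.60 and 6.35, and Ccn2 by 0.73, while Axl, a receptor kinase that YAP also induces, rose by 3.45 ± 0.24 and Tead1 by 0.50, lost with the mean of its probesets and without untreated replicate 4 or IL-12TD replicate 1 (adjusted p up to 0.186). On the list of immediate early and heat shock genes 6 of 13 rose, with Atf3 (1.13), Jun (1.09) and Dusp1 (1.06) first. Among markers of tissue next to the tumour, the keratinocyte list had 1 fall in 11 (Perp, -1.45 ± 0.16), the adipocyte list 2 rises in 7 (Lpl, 1.14, and Pparg, 0.41, the latter lost after either rescaling and without untreated replicate 1 or 4 or IL-12TD replicate 2 or 4) and the skeletal muscle list 6 rises in 11 (0.45 to 0.96). The muscle count was 3 without IL-12TD replicate 1.

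No gene passed between the Mock and untreated tumours at day 7 in limma (0 of 19938, 0%), with 2767 at an unadjusted p under 0.05. This comparison shares its untreated arrays with the one above, and the values are given side by side only. Under other settings it had up to 9 calls: 9 after quantile normalization or without Mock replicate 4, 6 with array weights or without untreated replicate 3, 3 without Mock replicate 1 and 1 after median centring. The difference from the untreated tumours was 0.23 in Mock and 5.12 in IL-12TD for Ifng, 1.42 and 6.07 for Gzmb, 1.84 and 4.84 for Cd74, 0.56 and 3.99 for Cd274, -0.57 and -2.59 for Scd1, and -0.52 and -1.23 for Mki67. The list medians in Mock and IL-12TD were 0.61 and 4.39 for guanylate-binding proteins, 0.71 and 2.01 for pan-leukocyte genes, 0.62 and 2.29 for MHC class II, -0.29 and -0.88 for mitosis and -0.33 and -0.85 for sterol and fatty acid synthesis. Arg1 had 1.08 and 1.15.

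The same comparison at day 3, on 8 other arrays, called 8353 genes (41.9%), 3210 (16.1%) higher and 5143 (25.8%) lower. The test of the difference between the 2 effects, day 7 minus day 3, called 5517 genes (27.7%): 3701 (18.6%) had a more positive difference at day 7 and 1816 (9.11%) a more negative one. Of these calls 67.1% were more positive at day 7, against 52.1% after quantile normalization, 47% after median centring and 82.7% without dim genes. The day 3 arrays differed in scale, with interquartile ranges of 2.08 to 2.33 in IL-12TD and 2.57 to 2.88 in untreated tumours. After quantile normalization 5665 genes were called at day 3 and 3272 for the difference between days. List values at day 3 and between days are on the deposited scale only. The part of the scale in them was not tested. A change between days can come from the untreated as well as the IL-12TD tumours, and day 3 levels are not given here. On the first principal component the untreated arrays lay at -47.9 to -35.5 at day 3 and at -1.75 to 27.4 at day 7.

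The granzymes Gzmg and Gzmd had the most positive changes between days. Gzmg differed by 0.18 at day 3 and by 4.43 at day 7, a change of 4.25 ± 0.74 between days (adjusted p = 0.000294), and Gzmd by 0.72 and 4.58 (3.86). Gzmg levels at day 7 were 8.15, 9.17, 9.92 and 7.89 in the IL-12TD and 3.91, 4.75, 4.83 and 3.91 in the untreated tumours. Of the next 4, Slit2, a guidance ligand, was lower at day 3 and higher at day 7 (-1.18 and 2.20), as was the kinase Cdc42bpa (-1.25 and 1.27). The odorant receptor Olfr1189 (0.61 and 3.47) and the ephrin receptor Epha3 (-0.77 and 1.70) were called at day 7 and not at day 3. Of 12 MHC class II genes, 5 had a more positive difference at day 7 and 0 a more negative one that passed, among them H2-Aa 2.72 at day 3 and 4.95 at day 7 (change 2.24 ± 0.45, adjusted p = 0.000865), Cd74 2.72 and 4.84, and Ciita 0.96 and 2.15. Irf1 (3.24 and 4.40), Irf8 (2.80 and 4.42) and Casp12 (2.87 and 4.32) also had a more positive difference at day 7, as did 6 of 8 guanylate-binding proteins. Adgre1 had -0.13 at day 3 and 1.91 at day 7, a change of 2.04 ± 0.52 (adjusted p = 0.00588).

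Ifng had a smaller difference at day 7 than at day 3 (5.12 and 7.15, change -2.03 ± 0.40, adjusted p = 0.000782), as did the chemokine Xcl1 (0.94 and 3.17, change -2.23). The most negative changes of the difference between days included neutrophil genes. S100a8 had 4.11 at day 3 and 0.20 at day 7 (change -3.91 ± 0.36, adjusted p = 1.86e-07), its partner S100a9 3.95 and 0.08, the IL-1 family cytokine Il1f9 3.66 and 0.50, the chemokine receptor Cxcr2 3.03 and 0.02, the growth factor Csf2 3.04 and 0.03, and the niacin receptor Hcar2 3.87 and 1.01. Of 15 neutrophil markers, 9 had a more negative difference at day 7 and none a more positive one, and their median was 1.54 at day 3 and 0.09 at day 7. The median of macrophage markers was 0.52 at day 3 and 1.31 at day 7. On the deposited scale, DNA replication genes were further below the untreated level at day 3 (median -1.30, 21 of 21 lower) than at day 7 (-0.47). Of the 21, 14 had a more positive difference at day 7. Mitosis genes had medians of -1.34 and -0.88, and melanocyte genes -0.48 and 0.07, with 7 of 17 more positive. Alas2 (0.19 and -2.38) and Ccn1 (-0.04 and -2.16) were lower at day 7 and not called at day 3. Cd8a (2.95 and 2.62), Prf1 (3.28 and 3.62), Cd274 (3.19 and 3.99) and Gzmb (6.81 and 6.07) had changes that did not pass, which does not show them to be equal.

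**Figure D5:**
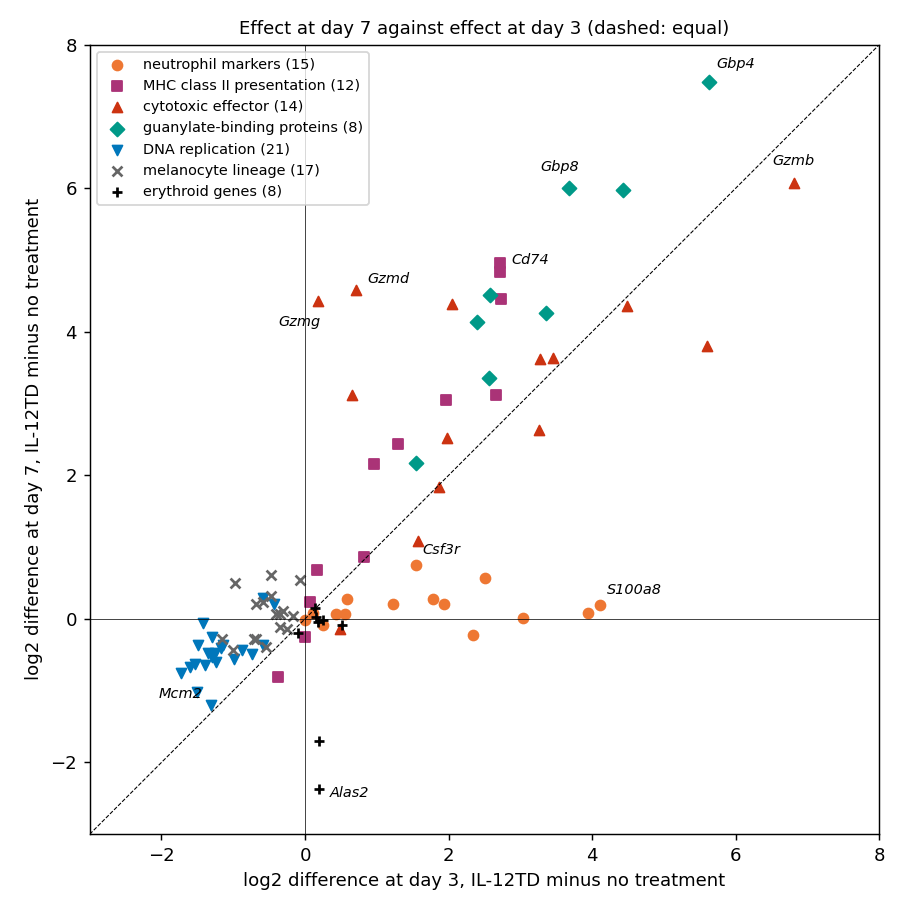
Log2 difference between IL-12TD and untreated tumours at day 7 (vertical axis) against that at day 3 (horizontal axis) for the members of 7 lists, 1 point per gene; the dashed line marks equal differences. S100a8 lies far right of the line and near 0 at day 7, with other neutrophil markers between it and the line, Gzmd, Gzmg and Cd74 lie above the line, and Alas2 lies far below it.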

How the data were processed

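Total RNA of 24 tumour cell suspensions was labelled with biotin and hybridised to Affymetrix arrays, 1 colour. As deposited, each array has a log2 intensity for every probeset; per the submitters' processing notes RMA was used, and which arrays were normalized together is not given in the sources used here. Of 35556 probesets, 21789 list exactly 1 gene in the platform annotation, 1621 several and 12146 none; of the former, 21698 symbols matched RefSeq and 91 were kept as given. The brightest probeset by mean stood for each of 19938 genes (999 had more than 1). No 2 arrays were identical. A model of 6 group means over all 24 arrays was fitted (limma 3.58.1, R 4.3.3; lmFit, eBayes), and genes were called at a two-sided Benjamini-Hochberg adjusted p under 0.05. The fit was checked on simulated data. The number of arrays limits the precision; differences and errors are on the log2 scale.

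Genes were named by rule: the 10 largest rises and falls of at least 2-fold without overlap (model and clone names left out), the 3 members of each of 44 lists with the smallest adjusted p, members called against their list, 40 key genes, and the 6 largest differences between days each way. Other members named were picked after their values were seen. The comparison, the lists and the key genes were chosen with earlier results of these data known. Same-numbered IL-12TD and untreated day 7 arrays had correlations of deviations of -0.154 to 0.279, which cannot settle a pairing, and the main fit used none. Scaling, probe filter, model settings, probeset rule and each single array left out were varied.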

Additional observations from a re-analysis of the deposited data

Results flagged for a closer look

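In 8 of 202 groups of 4 arrays screened, 1 array lay far from the others by Dixon's test, where chance gives about 1 in 20 (10.1). In the IL-12TD group these were replicate 2 for Casp12 (gap 0.891 of the range; level 6.79 against a mean of 8.12) and for the mean of the type I interferon list (0.855; 8.14 against 8.46), replicate 1 for Il12b (0.844), Batf3 (0.882) and the mean of the sterol and fatty acid list (0.84; 7.08 against 6.86), and replicate 3 for H2-Aa (0.934; 10.39 against 10.46). In the untreated group replicate 3 stood apart for Tap1 (0.902; 6.18 against 6.74) and for the mean of the Toll-like receptor list (0.868; 5.28 against 4.89).

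Of 49 genes screened (the measured key genes and the 6 largest differences between days each way), 23 had an effect at day 7 that differed from that at day 3 by limma's test of the difference itself (log2, day 7 minus day 3). The 6 each way were picked among genes that passed this test, so their calls were fixed by the choice. Of all genes, 27.7% passed it. The change was positive for Gzmg (4.25), Gzmd (3.865), Slit2 (3.388), Olfr1189 (2.856), Cdc42bpa (2.513), Epha3 (2.473), H2-Aa (2.235), Cd74 (2.121), Adgre1 (2.037), Irf8 (1.624), Casp12 (1.446), Tap1 (1.223), Ciita (1.194), Irf1 (1.159) and Mitf (0.8865). Of these, Slit2 and Cdc42bpa were called lower at day 3 and higher at day 7, and Mitf was called lower at day 3 (-0.69) and not called at day 7 (0.20). The change was negative for S100a8 (-3.91), S100a9 (-3.861), Il1f9 (-3.157), Cxcr2 (-3.017), Csf2 (-3.005), Hcar2 (-2.858), Xcl1 (-2.231) and Ifng (-2.033). The Mitf call was lost with the mean of its probesets (0.138) and after quantile normalization, and the Tap1 call after quantile normalization (adjusted p = 0.0543). The other 21 kept their call under all 24 alternatives run for the difference.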

How the results depend on the processing

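Of 158 named genes called between the IL-12TD and untreated tumours, 142 kept their call under every alternative run and 16 lost it under at least 1. Of the 24 not called, 4 (Hcar2, Cd79a, Epb42 and Krt14) passed under some. Many named genes were picked by size or adjusted p, which favours keeping a call, so these counts do not carry over to all genes. Over all genes, 3146 of the 4062 calls were kept without IL-12TD replicate 4. No result changed its direction past the threshold. The median of 11 of 44 lists changed sign under some alternative, and none of these lists had a median over 0.5 in size. Leaving out 1 array gave 3170 to 4210 calls (1864 to 2541 higher, 1306 to 1669 lower; at least 2-fold 693 to 804 and 136 to 151), lowest without IL-12TD replicate 4; without untreated replicate 3 there were 3704, of which 3255 are shared with the main 4062. At day 3 the range was 6627 to 8580 (2371 to 3377 higher, 4256 to 5203 lower), for the difference between days 4233 to 6015 (2969 to 4013 and 1264 to 2057), and for Mock 0 to 9 (0 to 7 and 0 to 3).

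Counts that moved by over 1.5 times were as follows. Quantile normalization gave 204 genes at least 2-fold lower, 3267 lower at day 3, and 3272 for the difference between days, 1705 of them more positive. Median centring gave 2790 lower and 3037 more negative for the difference between days. Without dim genes (13424 kept) 1770 were higher at day 3 and 791 more negative for the difference; array weights gave 2763 of the latter. All 35556 probesets gave 6230 calls, 3027 lower, 1330 and 442 at least 2-fold higher and lower, 4919 higher at day 3, and 8395 for the difference, 3825 more negative. Mock calls, 0 in the main fit, were 9 after quantile normalization (6 higher, 3 lower), 1 after centring (1 lower) and 6 with array weights (6 higher). With a replicate block there were 4131 calls, 3972 of them shared. Same-numbered arrays correlated best with each other for 2 of 4 numbers, which leaves a pairing undecided, and the main fit did not take the numbers as pairs. The 4 arrays a group limit what could be called.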

Other observations

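The lists covered 202 of the 735 genes at least 2-fold higher and 24 of the 133 at least 2-fold lower; the genes here were picked after their values were seen. Among those on no list, Apol6, a gene of the apolipoprotein L family, rose by 4.09 ± 0.14, with levels of 5.23, 4.98, 5.02 and 4.97 in the untreated and 9.28, 8.95, 9.12 and 9.22 in the IL-12TD tumours. Xdh, the enzyme that makes uric acid, rose by 3.63 ± 0.22, Samhd1, which breaks down nucleotides in myeloid cells, by 3.51 ± 0.19, Nod1, a sensor of bacterial peptidoglycan, by 3.14 ± 0.19 and the transglutaminase Tgm2 by 2.67 ± 0.20. Of 11 Parp genes 7 rose and 1 fell (median 1.57), led by Parp14 (3.27) and Parp12 (2.48). All 5 Slamf receptors of leukocytes rose, by 0.47 to 2.95. Of 59 Trim genes 15 rose and 3 fell (median 0.05), with Trim12a (3.59), Trim30d (3.48) and Trim30a (3.36) first. Beside Scd1, the desaturases Fads1 and Fads2, which make polyunsaturated fatty acids, fell by 1.74 ± 0.18 and 1.43 ± 0.20, and Tmem97, a gene of sterol handling, by 1.73 ± 0.17.

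Ribosomal protein genes were lower. Of 61 tested genes with Rpl or Rps symbols, paralogs and pseudogenes among them, 42 fell and 0 rose, with a median of -0.55, where 8.61% of all genes fell. The median was -0.64 after median centring, -0.67 after quantile normalization and -0.51 without untreated replicate 3. It was -0.10 in Mock against untreated at day 7 and 0.08 in IL-12TD against untreated at day 3. Rpl8 fell by 1.33 and Rps29 by 1.27, while Rpl30 had 0.42. Many of these genes have near-identical copies that their probesets may read as well.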
